A study of Homo sapiens with 32 samples.

Results

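The m6A reader genes described here are 10 genes taken by name, YTHDF1, YTHDF2, YTHDF3, YTHDC1, YTHDC2, IGF2BP1, IGF2BP2, IGF2BP3, HNRNPA2B1 and HNRNPC, out of 58721 genes in the expression tables. All 10 were found by symbol. The samples were 32 libraries of human HEK293T embryonic kidney cells in 16 groups of 2, made by RNA-Seq, by Subunit-Seq and by m6A-eCLIP. RNA-Seq (8 libraries) and m6A-eCLIP (16 libraries) used cells with wild-type eIF3d (WT) or with the phosphomimetic form S528D, S529D (DD). Subunit-Seq (8 libraries) used cells with HA-eIF3d-TEV, an HA-tagged eIF3d with a TEV protease site, and gave input and immunoprecipitate (IP) libraries. In each assay cells received 600 nM thapsigargin (Tg), an inhibitor of the calcium pump that fills the endoplasmic reticulum, for 16 h, or DMSO for the same time. The labels do not say whether each line is 1 clone, whether native eIF3d remains, or whether the 2 libraries of a group come from separate cultures. The p-values thus measure only the spread between these libraries. In Subunit-Seq that spread was pooled over genes, so it is not the spread of each gene between its own replicates.

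N6-methyladenosine (m6A) is a methyl mark on internal adenosines of mRNA that is written by a nuclear methyltransferase complex, removed by demethylases and read by RNA-binding proteins. The YTH proteins bind the methylated base directly in an aromatic pocket, the cytoplasmic YTHDF proteins being best known for mRNA decay and the nuclear YTHDC1 for splicing and export. The IGF2BP proteins stabilise bound mRNAs, and the nuclear proteins HNRNPA2B1 and HNRNPC are thought to reach their sites mostly through changes of RNA structure caused by the mark. The comparisons below ask how the mRNAs of these proteins stood in chronic stress and with phosphomimetic eIF3d, whether they were recovered with the cap-binding part of eIF3d, and where they carried called m6A sites.

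The reads recovered from the expression values numbered 4507088 to 10160430 in the RNA-Seq libraries and 5100456 to 16853323 in the Subunit-Seq libraries. Mitochondrial ribosomal RNA took 25.4% to 57.3% of RNA-Seq reads, 4.65% to 20.4% of input reads and at most 0.705% of IP reads. Input DMSO replicate 2 stood apart, with 6395 genes at 1 RPKM (reads per kilobase of gene length, corrected for library depth) or more against 11452 in replicate 1. EIF3D itself read 29.2 to 91.2 RPKM in RNA-Seq, but the tables do not separate the transgene from the native gene, so this checks no genotype. Of 7 genes known from HEK293T cells, NEFL, NEFM and LIN28B reached a mean of 1 RPKM over the RNA-Seq libraries and 4 did not, DPPA4 being listed at 0 in all 8. Of 9 markers of other cell types only the fibroblast collagens COL1A1 and COL3A1 reached it, at means of 8.06 and 3.23 RPKM, and the blood marker PTPRC and the tubule marker UMOD were listed at 0.

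Called m6A sites fell in the genes of 5 readers, at 7 distinct positions (GRCh38). The deposited lists held 3000 sites in WT DMSO, 1572 in WT Tg, 1796 in DD DMSO and 5050 in DD Tg, and reader genes held 0, 1, 0 and 7 of them. The reader genes with a site numbered 0, 1, 0 and 5 in the same order, where 10.8%, 5.36%, 5.92% and 18.2% of 9145 expressed genes had at least 1. The lists have no replicates, scores or coverage, so depth is unknown and no difference between them was tested. The DD Tg list is the longest, and reader sites made up 0.139% of it against 0.0636% of the WT Tg list.

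HNRNPA2B1, a nuclear RNA-binding protein that has been linked to primary microRNA processing, had sites at position 26200746 of chromosome 7 in WT Tg and DD Tg and at 26192581 in DD Tg. The first is the first base of the gene span (26189927 to 26200746, minus strand) and the only reader position in more than 1 list. HNRNPC, which packages nascent transcripts, had a site at 21269424 of chromosome 14, base 19 of its span (21209147 to 21269442, minus strand), in DD Tg. These are the reader sites for which RefSeq sequence was at hand, and they are shown here in RefSeq letters (GRCh38.p14), 5′ to 3′ on the gene strand, with the called base in capitals.
HNRNPA2B1 site, chr7:26200732-26200761, minus strand: agcggctctagcggcAgtagcagcagcgcc
HNRNPC site, chr14:21269410-21269439, minus strand: ggagactcgggggccAttttgtgaagagac
Both called bases are an A preceded by C, and neither is followed by C, the base that follows m6A in its usual internal sequence context. Of 351 sites of all 4 lists within RefSeq promoter windows (250 bases before to 50 after a gene's first base), 343 (97.7%) were on an A and 84 (23.9%) were on the first base. In those windows 71 of 349 sites (20.3%) were followed by C. The first transcribed base can carry m6Am, a related cap-adjacent mark to which antibodies against m6A are known to bind too, and which mark these calls report was not tested.

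The start of the HNRNPA2B1 gene can be set beside those of YTHDC1 and HNRNPC, which in RefSeq likewise begin with an A after a C but had no call at that base in any list. Both starts are shown, with the first base in capitals, for comparison with the called start of HNRNPA2B1.
YTHDC1 first base, chr4:68350076-68350105, minus strand: taaacagcgcagggcAtttcgggagcggga
HNRNPC first base, chr14:21269428-21269457, minus strand: cttcgcctcggcggcAgaggagactcgggg
Of 35116 RefSeq promoters, 44.4% had A at the first base and 29.6% had C followed by that A. YTHDC1 mRNA was less abundant than HNRNPA2B1 mRNA in all 8 RNA-Seq libraries, with 3.28 against 25.5 RPKM on average. HNRNPC mRNA, at 39.1 RPKM on average, was more abundant than HNRNPA2B1 mRNA in all RNA-Seq libraries but DD Tg replicate 2 (45.7 against 47.7). The RefSeq first base of HNRNPC was not called, but base 19 of its span was. The starts used in these cells were not measured. The part of abundance and depth in which starts are called was not tested.

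The other 4 reader positions lay inside the genes, and all were in the DD Tg list alone. YTHDF1 had a site at 63202741 of chromosome 20 (gene 63195429 to 63216131, minus strand), 64.7% of the way along the span. YTHDF2 had a site at 28743665 of chromosome 1 (gene 28736624 to 28769775, plus strand), 21.2% along it. IGF2BP1 had sites 20 bases apart at 49037197 and 49037217 of chromosome 17 (gene 48996558 to 49056145), both listed on the plus strand. The strand of IGF2BP1 was not in the tables used, and they lay 68.2% along the span counted from its lower coordinate. Exons and untranslated regions were not assigned here because only gene spans were at hand. YTHDF3, YTHDC1, YTHDC2, IGF2BP2 and IGF2BP3 had no called site. In all, 5 of the 10 readers had a site in at least 1 list, where 22.7% of expressed genes did. Expressed genes had a mean of at least 1 RPKM in RNA-Seq, which IGF2BP3 did not reach. HNRNPC, HNRNPA2B1, YTHDF2 and YTHDF1 were also the most abundant readers, at the 91.4th, 88.0th, 80.1st and 64.4th percentiles of genes tested in RNA-Seq. IGF2BP1 was at the 42.1st. The part of abundance in which readers had a site was not tested.

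**Figure D1:**
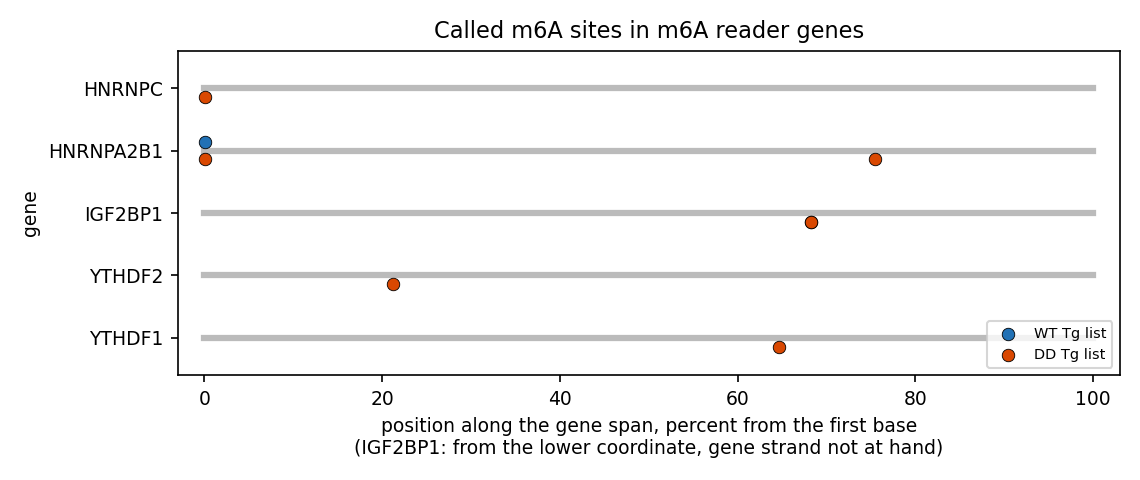
Called m6A sites in the 5 reader genes that had one. The x axis is the position along each gene span in percent from its first base (for IGF2BP1, whose strand was not at hand, from its lower coordinate), each grey line is 1 gene, blue points are sites of the WT Tg list and orange points sites of the DD Tg list, and the IGF2BP1 sites overlap at this scale; HNRNPA2B1 is the gene with points of both colours, at its first base.

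In RNA-Seq the readers covered a wide range of mRNA levels. HNRNPC was the most abundant reader in every group and IGF2BP3 the least. The hnRNP readers together took 56.8% to 79.4% of the summed reader RPKM of a library. The order was HNRNPC, HNRNPA2B1, YTHDF2 and YTHDF1 in all 4 groups, followed by the other YTH genes and the IGF2BP genes, most of which did not separate from their neighbours. In WT DMSO, for example, HNRNPC read 30.1 ± 13.4 (SD, n = 2), HNRNPA2B1 15.4 ± 8.09 and YTHDF2 12.01 ± 4.47, with neighbours in this order overlapping, while YTHDF2 and YTHDF1 (5.14 ± 1.19) did not overlap. Over all 8 libraries HNRNPC stood at the 91.4th percentile of the genes tested and YTHDC2 at the 15.4th.

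HNRNPA2B1 in WT cells read 21.1 RPKM (replicate 1) and 9.67 RPKM (replicate 2) with DMSO and 15.3 and 21.4 with Tg. With DD eIF3d it read 18.5 and 40.4 with DMSO and 29.8 and 47.7 with Tg. Both DD Tg libraries were above both WT Tg libraries, whereas DD DMSO replicate 1 lay inside the WT DMSO range. HNRNPC read 39.6 and 20.6 in WT with DMSO, 36.6 and 42.7 with Tg, 33.0 and 47.8 in DD with DMSO, and 46.8 and 45.7 with Tg. Its DD Tg libraries also lay above its WT Tg libraries, by a smaller margin.

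YTHDF2, the reader that recruits the CCR4-NOT deadenylase to methylated mRNAs, read 15.2 and 8.85 RPKM in WT with DMSO, 16.2 and 11.6 with Tg, 13.0 and 8.83 in DD with DMSO, and 14.94 and 15.02 with Tg. YTHDF1, its cytoplasmic paralog that has been linked to translation, read 5.98 and 4.30, 6.22 and 7.14, 5.92 and 3.95, and 6.74 and 6.25 in the same order. YTHDF3, the third paralog, read 4.01 and 1.12, 4.15 and 1.35, 3.34 and 1.37, and 2.71 and 3.23 in the same order. YTHDF1 was higher in Tg than in DMSO without overlap in both genotypes, but narrowly (6.22 against 5.98 in WT and 6.25 against 5.92 in DD). YTHDF2 was so in DD alone, as were 6.55% of all genes tested in WT and 8.59% in DD. YTHDF3 was so in neither, its replicate 1 exceeding replicate 2 in all groups but DD Tg.

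YTHDC1, the nuclear YTH reader, read 4.87 and 1.64 RPKM in WT with DMSO, 3.13 and 1.99 with Tg, 2.78 and 2.58 in DD with DMSO, and 2.81 and 6.41 with Tg. YTHDC2, a reader that is also an RNA helicase and is best known from meiosis, read 1.58 and 0.861, 2.20 and 0.640, 1.49 and 0.864, and 1.05 and 2.75 in the same order. YTHDC1 was higher in DD Tg than in DD DMSO without overlap, but by a narrow margin in replicate 1, and YTHDC2 separated neither the treatments nor the genotypes.

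IGF2BP1, an oncofetal reader that protects mRNAs from decay, read 2.49 and 1.90 RPKM in WT with DMSO, 2.64 and 1.97 with Tg, 3.004 and 2.41 in DD with DMSO, and 1.92 and 5.81 with Tg. IGF2BP2 read 3.03 and 1.12, 3.74 and 1.65, 2.86 and 2.15, and 2.08 and 6.12 in the same order, and IGF2BP3 0.795 and 0.339, 1.22 and 0.512, 0.980 and 0.784, and 0.428 and 2.55. All 3 paralogs were highest of 8 libraries in DD Tg replicate 2, and none separated the treatments or the genotypes. The antisense gene IGF2BP2-AS1 was listed at no more than 0.257 RPKM in any library. DD Tg replicate 2 was the highest library for 6 of the 10 readers and also had the highest share of mitochondrial ribosomal RNA. WT DMSO replicate 2, the shallowest library, was the lowest for 7 of them. The part of library quality in these levels was not tested.

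**Figure D2:**
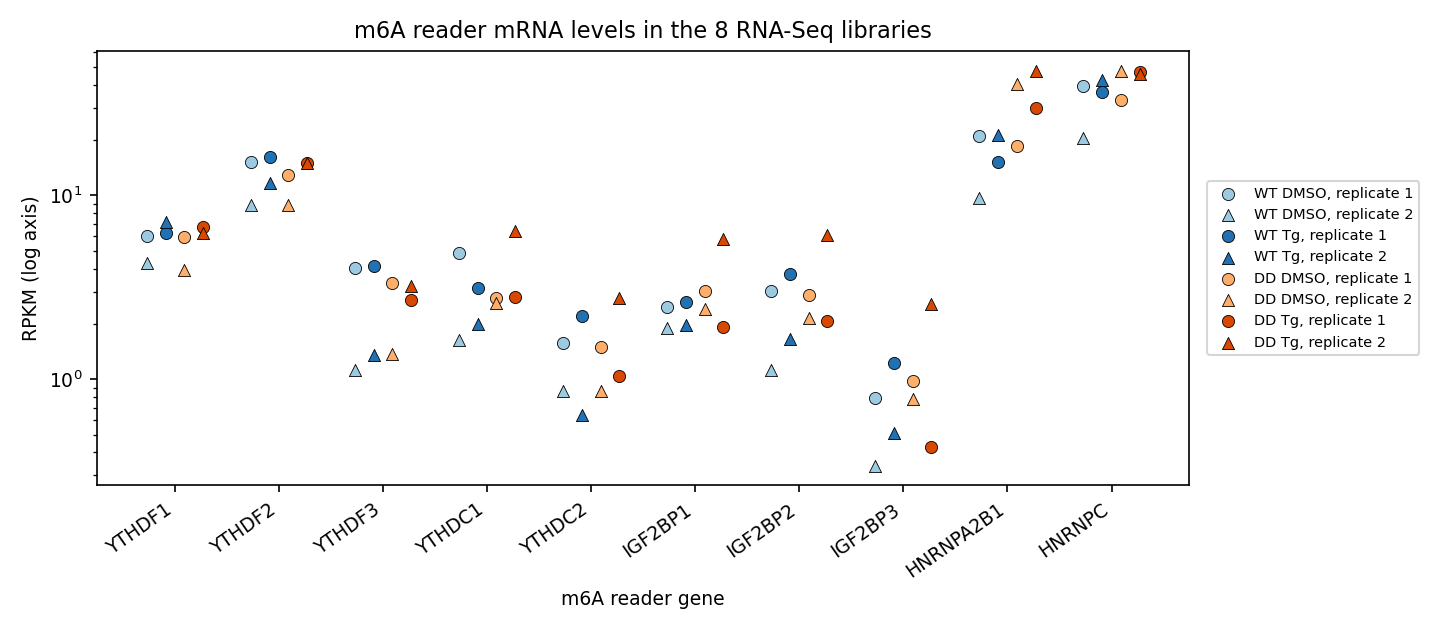
Level of each reader mRNA in RPKM (log axis) in the 8 RNA-Seq libraries, with 1 point per library, circles for replicate 1 and triangles for replicate 2, coloured by genotype and treatment. HNRNPC and HNRNPA2B1 lie highest, and the DD Tg triangle is the highest point for YTHDC1, YTHDC2, the IGF2BP genes and HNRNPA2B1.

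No reader passed the test in any of the 5 RNA-Seq comparisons, and neither did any other gene. Of 9637 genes with a mean of at least 1 RPKM, 0 (0%) had a limma adjusted p under 0.05 for Tg against DMSO in WT, for Tg against DMSO in DD, for DD against WT in DMSO, for DD against WT in Tg or for the interaction. In that order 24, 25, 68, 82 and 21 genes had an unadjusted p under 0.05, and limma's voom on recovered reads also called 0. Of the readers 9 were tested, and IGF2BP3, with a mean of 0.951 RPKM, was below the filter. The SE of a single reader's log2 difference between 2 groups was 0.51 to 0.74. In whole cultures fewer cells with a transcript and less RNA per cell cannot be told apart.

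In WT the median log2 difference of the 9 readers between Tg and DMSO was 0.22, against 0.12 for all genes tested, and 5 of 9 were above that all-gene median. In DD it was 0.36 against 0.02, with 9 of 9 above, from 0.21 for HNRNPC to 0.53 for YTHDC1. Tg and DMSO libraries did not overlap, with Tg higher, for 1 of 9 readers in WT (YTHDF1; 6.55% of all genes tested) and for 3 of 9 in DD (YTHDF1, YTHDF2 and YTHDC1; 8.59%). Within replicate 1 of DD, however, only 5 of the 9 differences were positive, whereas 8 of 9 were positive within replicate 2. The interaction, which tests whether the Tg difference was unlike between genotypes, had a reader median of 0.21 against −0.10 for all genes and no call.

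Between genotypes the reader median was −0.02 in DMSO against 0.13 for all genes, and 0.27 in Tg against 0.05. No reader separated DD from WT in DMSO with DD higher, where 11.1% of all genes did. In Tg 2 of 9 did, HNRNPA2B1 and HNRNPC, where 10.2% of all genes did. HNRNPA2B1 had the largest reader difference, at 0.89 ± 0.74 (SE) on the log2 scale in DMSO and 1.02 ± 0.74 in Tg, neither of which passed (limma adjusted p = 1 in both). In DMSO the value was 0.34 without DD DMSO replicate 2 and 0.36 without WT DMSO replicate 2. In Tg it was 0.69 without DD Tg replicate 2.

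The ratio of HNRNPA2B1 to HNRNPC RPKM within a library does not depend on how libraries are scaled to each other. In WT it was 0.534 and 0.470 in DMSO and 0.418 and 0.501 in Tg. In DD it was 0.561 and 0.845 in DMSO and 0.638 and 1.05 in Tg. The 4 DD libraries were thus above the 4 WT libraries without overlap, while treatment groups overlapped within each genotype. HNRNPA2B1 was the only one of 8 other tested readers whose ratio to HNRNPC separated the genotypes, and 0.56% of other genes tested did so in this direction. This ratio was chosen after its values were seen and has no test. HNRNPC has processed copies elsewhere in the genome, such as HNRNPCP2, listed at 3.27 to 10.8 RPKM, and how shared reads were counted is not given in the sources used here, so its level and this ratio are uncertain to that extent.

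**Figure D3:**
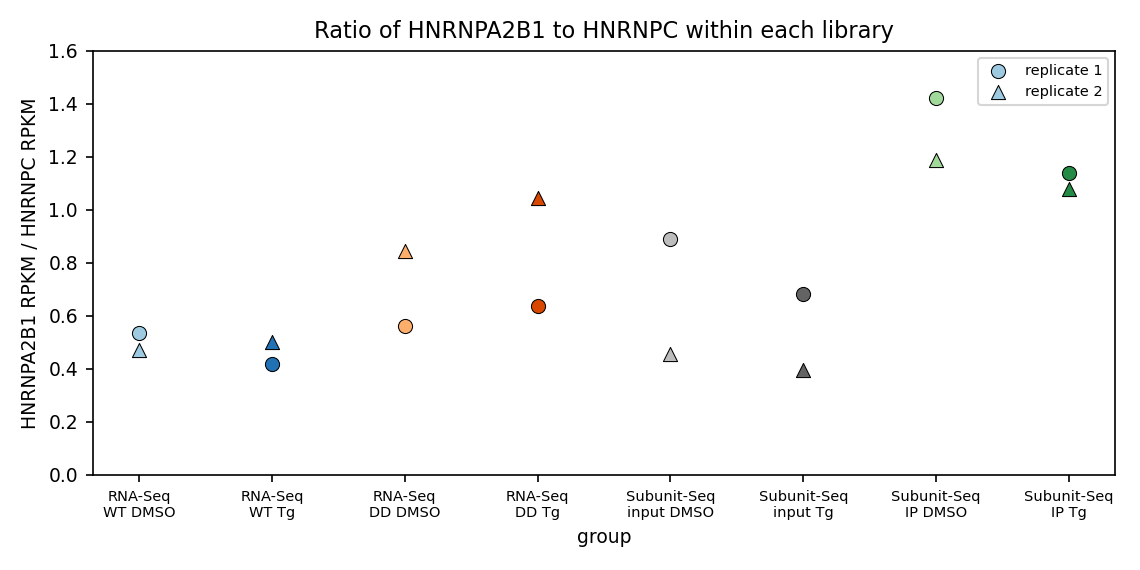
Ratio of HNRNPA2B1 RPKM to HNRNPC RPKM in each of the 16 RNA-Seq and Subunit-Seq libraries, by group on the x axis, with circles for replicate 1 and triangles for replicate 2. WT libraries lie between 0.418 and 0.534, DD libraries between 0.561 and 1.05, inputs between 0.395 and 0.890 and IP libraries between 1.08 and 1.42.

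Subunit-Seq compared RNA recovered with the cap-binding domain of eIF3d with input RNA, and most readers were higher in the IP. Of 9 readers tested, 7 passed the test in DMSO, all higher (YTHDF1, YTHDF2, YTHDC1, IGF2BP1, IGF2BP2, HNRNPA2B1 and HNRNPC), where 21.4% of 9813 genes did. In Tg 4 of 9 passed, all higher (YTHDF1, YTHDF2, YTHDC1 and HNRNPA2B1), where 14.6% did. These calls hold for RPKM as deposited, on which the median of all genes tested was itself 0.96 higher in the IP in DMSO and 0.87 in Tg on the log2 scale. When libraries were rescaled by median ratios these medians were −0.12 and −0.15 and no reader was called, and calls over all genes went from 2100 higher and 172 lower to 12 higher and 17 lower in DMSO and from 1432 and 159 to 27 and 58 in Tg. The RPKM of 6 of the 9 readers (YTHDF1, YTHDF2, YTHDC1, IGF2BP2, HNRNPA2B1 and HNRNPC) was higher in all 4 IP libraries than in all 4 inputs, as it was for 42% of all genes tested. Values below are therefore also given relative to the all-gene median.

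How many readers were called, and how many of all genes, changed when single libraries were left out. Such a fit leaves 1 library in a group. No reader call in DMSO or in Tg held in all of these fits. The all-gene median of IP against input in DMSO was 0.43 without input DMSO replicate 2 and 1.49 without input DMSO replicate 1. In Tg it was 0.64 without input Tg replicate 1 and 1.00 without input Tg replicate 2. Within replicate 1 the all-gene median of IP against input in DMSO was 0.38, and within replicate 2, with the input that stood apart, it was 1.57.

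HNRNPA2B1, the reader that mediates nuclear RNA processing, had the largest log2(RPKM + 1) difference of the readers with RPKM as deposited. In DMSO its RPKM was 69.8 in the input and 193 in the IP of replicate 1, and 8.13 and 120.4 in replicate 2. In Tg it was 34.7 and 140.2 in replicate 1, and 17.8 and 126.5 in replicate 2. All 4 IP libraries were above all 4 inputs. The log2 difference was 2.59 ± 0.64 (SE; limma adjusted p = 0.00220) in DMSO and 2.37 ± 0.64 (limma adjusted p = 0.00490) in Tg, at the 97.9th and 96.7th percentiles of all genes tested. Relative to the all-gene median it was 1.63 and 1.499, and above 1 within each replicate and treatment. With median-ratio scaling it was 1.15 in DMSO, below the 1.26 of YTHDC1, and 1.11 in Tg, and neither passed. The DMSO value fell to 1.41 without input DMSO replicate 2 and no longer passed (limma adjusted p = 0.325), and over all 8 libraries left out in turn it ran from 1.41 to 3.78 in DMSO and from 1.69 to 3.06 in Tg.

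HNRNPC had a smaller difference. Its RPKM was 78.5 in the input and 135.6 in the IP of DMSO replicate 1, 17.9 and 101.5 in DMSO replicate 2, 50.7 and 123.0 in Tg replicate 1, and 44.95 and 117.2 in Tg replicate 2. All IP libraries were again above all inputs. The difference passed in DMSO (log2 1.61 ± 0.63 SE, limma adjusted p = 0.0482) and gave 1.31 ± 0.63 in Tg (limma adjusted p = 0.122). Relative to the all-gene median these were 0.65 and 0.44. The DMSO value was 0.68 without input DMSO replicate 2 and 2.54 without input DMSO replicate 1.

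Within a library HNRNPA2B1 stood at 0.890 and 0.455 of HNRNPC in the DMSO inputs (replicates 1 and 2) and at 0.684 and 0.395 in the Tg inputs. In the IP libraries it stood at 1.42 and 1.19 in DMSO and at 1.14 and 1.08 in Tg. All 4 IP ratios exceeded all 4 input ratios. YTHDF2 was the only other reader whose ratio to HNRNPC did so, at 0.250 to 0.367 in the IP against 0.206 to 0.239 in the input, and 6.33% of other genes tested did. HNRNPCP2 was listed at 1.71 to 49.5 RPKM in these libraries, so the same uncertainty applies.

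YTHDF1 and YTHDF2 had similar values. YTHDF1 read 10.99 in the input and 20.7 in the IP of DMSO replicate 1, 1.80 and 25.7 in DMSO replicate 2, 8.49 and 30.5 in Tg replicate 1, and 5.87 and 36.2 in Tg replicate 2. YTHDF2 read 16.6 and 33.9, 4.28 and 34.7, 11.7 and 41.8, and 9.24 and 43.0 in the same order. For both genes every IP library was above every input. The log2 differences in DMSO and Tg were 2.05 ± 0.66 and 2.08 ± 0.66 for YTHDF1 (limma adjusted p = 0.0183 and 0.0204) and 1.87 ± 0.67 and 1.93 ± 0.67 for YTHDF2 (limma adjusted p = 0.0312 and 0.0329). Relative to the all-gene median they were 1.09 and 1.21 for YTHDF1 and 0.91 and 1.05 for YTHDF2. Without input DMSO replicate 2 the DMSO values were 0.99 for YTHDF1 and 1.04 for YTHDF2, and without input DMSO replicate 1 that of YTHDF1 was 3.11. Both genes also read higher in the Tg IP than in the DMSO IP in each replicate, by 1.47 and 1.41 times for YTHDF1 and by 1.23 and 1.24 times for YTHDF2, and were the 2 of 9 readers whose IP groups did not overlap, with Tg higher, as 18.1% of all genes did. Neither passed the test of IP Tg against IP DMSO (limma adjusted p = 1 in both).

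YTHDF3 differed between replicates. It read 3.53 in the input and 3.53 in the IP of DMSO replicate 1 and 3.59 and 3.81 in Tg replicate 1, but 0.600 and 6.23 in DMSO replicate 2 and 0.809 and 7.56 in Tg replicate 2. Relative to the all-gene median its IP was lower in replicate 1 (−0.38 in DMSO and −0.79 in Tg) and higher in replicate 2 (0.60 and 1.40). The pooled differences of 1.09 ± 0.61 in DMSO and 1.15 ± 0.61 in Tg did not pass (limma adjusted p = 0.159 and 0.157).

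YTHDC1 read 4.01 in the input and 9.47 in the IP of DMSO replicate 1, 0.0779 and 6.31 in DMSO replicate 2, 2.70 and 9.12 in Tg replicate 1, and 0.828 and 5.86 in Tg replicate 2. Every IP library was above every input. The value of input DMSO replicate 2 rests on 8 reads (exact 95% Poisson interval 3.45 to 15.8, counting error only). The log2 differences of 1.91 ± 0.61 in DMSO and 1.68 ± 0.61 in Tg passed (limma adjusted p = 0.0175 and 0.0434), and relative to the all-gene median they were 0.95 and 0.80. The DMSO value was 1.16 without input DMSO replicate 2. YTHDC2, with a mean input of 0.845 RPKM, was below the filter. It read 1.13 and 2.38, 0.133 and 3.05, 1.78 and 3.51, and 0.346 and 3.83 in the same order, higher in every IP than in every input.

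The 3 IGF2BP genes had unlike differences between IP and input, which were not tested against each other. IGF2BP1 read 16.1 in the input and 19.6 in the IP of DMSO replicate 1, 0.737 and 18.6 in DMSO replicate 2, 15.2 and 18.9 in Tg replicate 1, and 2.49 and 9.26 in Tg replicate 2. IGF2BP2 read 9.56 and 12.3, 0.405 and 13.3, 6.46 and 12.4, and 2.19 and 9.79 in the same order, and IGF2BP3 read 2.18 and 1.09, 0.402 and 2.72, 1.73 and 2.09, and 0.371 and 1.36. The IGF2BP1 and IGF2BP2 inputs of replicate 2 were far below those of replicate 1, while their DMSO IP libraries were close to each other.

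In DMSO the IGF2BP1 difference was 1.88 ± 0.66 and the IGF2BP2 difference 1.84 ± 0.64, and both passed (limma adjusted p = 0.0271 and 0.0274). They were 0.77 and 0.62 without input DMSO replicate 2, 2.99 and 3.05 without input DMSO replicate 1, and 0.84 and 1.04 without IP DMSO replicate 2. Without IP DMSO replicate 1 the IGF2BP1 value was 2.93. Relative to the all-gene median, however, they were −0.11 and −0.05 within replicate 1 and 1.93 and 1.77 within replicate 2. In Tg IGF2BP1 gave 0.93 ± 0.66 and IGF2BP2 1.30 ± 0.64 (limma adjusted p = 0.290 and 0.130). IGF2BP3 gave 0.40 ± 0.59 in DMSO and 0.48 ± 0.59 in Tg (limma adjusted p = 0.611 and 0.550), and it was below the all-gene median in each replicate and treatment. With median-ratio scaling the sign turned for IGF2BP3 in both treatments (−0.33 and −0.18) and for IGF2BP1 in Tg (−0.20).

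**Figure D4:**
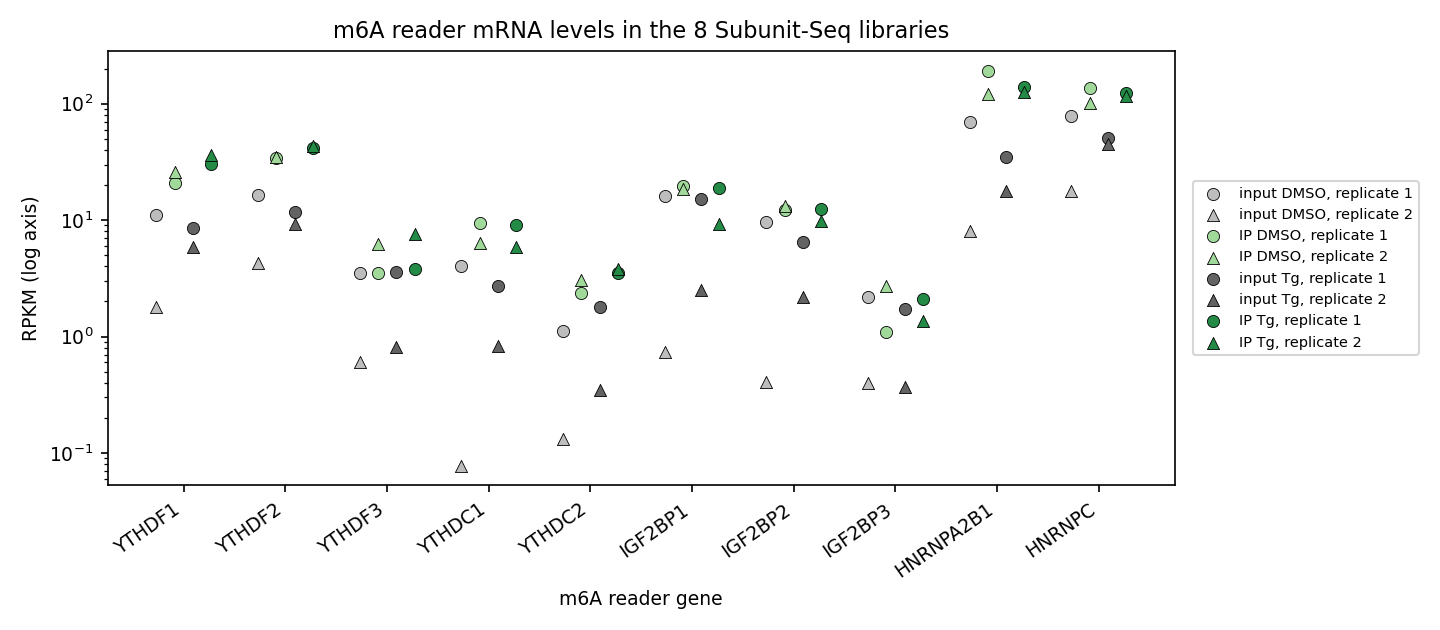
Level of each reader mRNA in RPKM (log axis) in the 8 Subunit-Seq libraries, with 1 point per library, grey for input and green for IP, circles for replicate 1 and triangles for replicate 2. The light grey triangles (input DMSO replicate 2) are the lowest points for 9 of the 10 readers.

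Relative to the all-gene median of the same replicate, 5 of 9 readers were higher in the IP in both replicates in DMSO (32.7% of all genes) and 5 of 9 in Tg (34.2%). In both treatments these were YTHDF1, YTHDF2, YTHDC1, HNRNPA2B1 and HNRNPC. All 4 values of HNRNPA2B1 lay between 1.07 and 2.16, and those of YTHDC1 between 0.60 and 1.19.

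**Figure D5:**
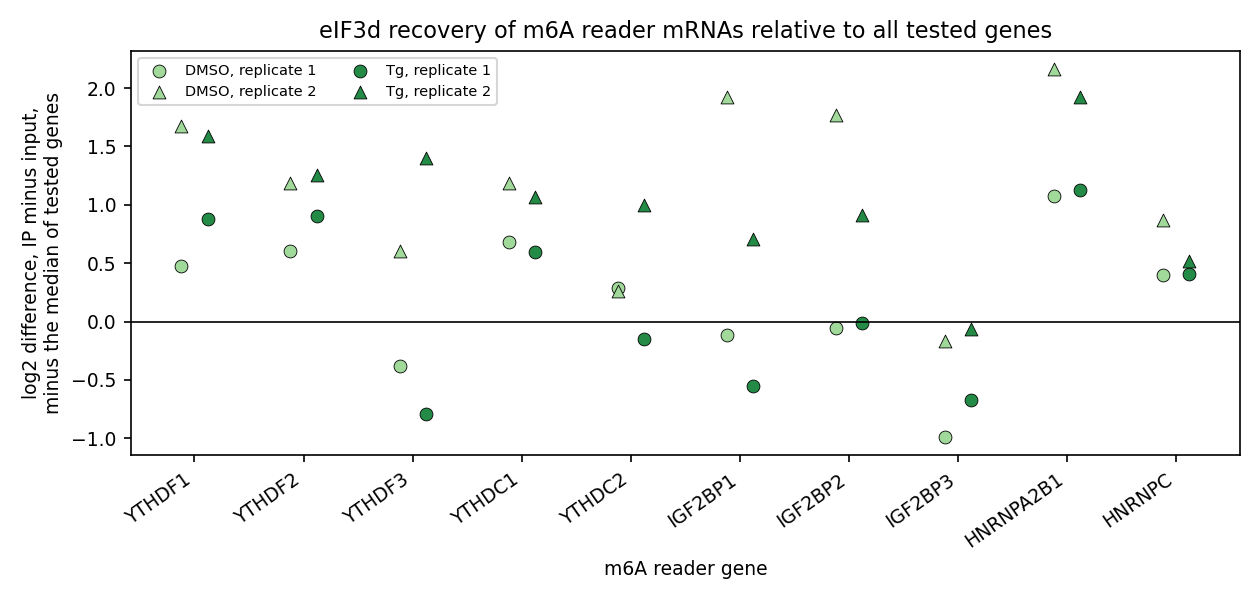
Log2(RPKM + 1) difference between IP and input for each reader, minus the median of all genes tested in the same replicate and treatment (line at 0), with light green for DMSO, dark green for Tg, circles for replicate 1 and triangles for replicate 2. HNRNPA2B1 lies highest, between 1.07 and 2.16, IGF2BP3 lies below the line in all 4 cases, and YTHDF3, IGF2BP1 and IGF2BP2 fall on either side of it by replicate.

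Whether recovery with eIF3d differed between Tg and DMSO was tested as the difference of the IP-to-input differences. No reader passed, where 6 genes (0.0611%) did. The largest reader value was −0.96 ± 0.93 (SE) for IGF2BP1 (limma adjusted p = 1.00), which was 0.15 without input DMSO replicate 2 and 0.09 without IP DMSO replicate 2. Thus the passing of IGF2BP1, IGF2BP2 and HNRNPC in DMSO alone is not shown to be a difference between treatments. No reader passed for input Tg against input DMSO, where 5 genes (0.051%) did, nor for IP Tg against IP DMSO, where 7 (0.0713%) did.

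Other genes of the m6A pathway were tested in the same way, again with RPKM as deposited, where 21.4% of all genes passed with the IP higher in DMSO and 14.6% in Tg. Among the writers 3 of 8 tested passed in each treatment, all higher. They were ZC3H13, a scaffold of the methyltransferase complex (2.48 ± 0.62 in DMSO and 2.17 ± 0.62 in Tg), RBM15B, an RNA-binding adaptor of it (2.31 ± 0.67 and 2.61 ± 0.67), and METTL16, a separate methyltransferase (1.77 ± 0.61 and 1.73 ± 0.61). ALKBH5, a demethylase and the 1 eraser tested, was higher by 2.84 ± 0.67 in DMSO and 2.63 ± 0.67 in Tg. In this fit that was a larger value than that of any reader. In DMSO, however, it read 26.9 RPKM in the input and 64.8 in the IP of replicate 1, against 1.85 and 60.8 in replicate 2. Its DMSO difference was thus larger within replicate 2, with the input that stood apart. The medians of the writers were 1.46 and 1.55, against 0.96 and 0.87 for all genes tested.

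The counts of the other lists stand against the same 21.4% and 14.6%. Of 7 other proteins described as m6A-associated, 3 passed in DMSO (PRRC2A, FXR2 and FMR1) and 2 in Tg (PRRC2A and FMR1). Of 13 tested genes of the CCR4-NOT deadenylase and decay partners of YTHDF2, 3 passed in DMSO (UPF1, CNOT8 and CNOT6) and 2 in Tg (CNOT8 and UPF1), a share near that of all genes, and the medians of 1.00 and 0.93 were also near those of all genes. Of 4 nuclear partners of YTHDC1 only the export receptor NXF1 passed, in both treatments (2.01 ± 0.64 and 1.73 ± 0.64), with list medians of 0.94 in each. Of 15 other hnRNP genes 11 passed in DMSO, led by HNRNPM at 2.89 ± 0.66, and 9 in Tg, led by HNRNPA0 at 2.53 ± 0.67, with medians of 1.87 and 1.76. Of 5 tested mRNAs described as IGF2BP targets 2 passed in DMSO, MYC and ACTB, and 1 in Tg, HMGA2. In RNA-Seq 0 genes of these lists passed in any comparison.

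Across the 8 RNA-Seq libraries the mean standardized level of the 9 tested readers was lowest in WT DMSO replicate 2 (−1.36) and highest in DD Tg replicate 2 (1.25). Among 3798 other genes with a mean of at least 5 RPKM, those most like it in log2 level were KATNA1 (Pearson r = 0.987), SMC3 (0.987), SMARCA5 (0.985), FBXO5 (0.985) and SEC63 (0.981). Between pairs of readers r ran from 0.10 for YTHDF1 and HNRNPA2B1 to 0.94 for YTHDC2 and IGF2BP2. The points are the 8 libraries themselves, which differ in depth and mitochondrial share, so these values describe likeness of profile over these libraries and carry no test.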

How the data were processed

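The authors deposited RPKM for 58721 genes in RNA-Seq and Subunit-Seq. Tools listed in the submitters' processing notes are STAR, BWA, cutadapt and DESeq2, with no role or version, and the build is GRCh38. The gene counter, annotation, strand setting and site caller are not given in the sources used here. The authors' m6A files are other data, lists of positions with strand, 1 per genotype and treatment.

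Reads were recovered from the RPKM steps (26176 of 26179 genes whole within 0.02 reads). log2(RPKM + 1) was fitted with limma 3.58.1 in R 4.3.3 (eBayes with trend), all 4 groups of an assay in 1 fit, with two-sided p-values adjusted by Benjamini-Hochberg over every gene tested and a threshold of 0.05. Genes needed a mean of 1 RPKM over the 8 RNA-Seq libraries or the 4 inputs. Fold changes on this scale understate changes of low genes. Replicate number was a block in Subunit-Seq, where each replicate has its own deposited table. That fit's prior degrees of freedom were infinite, so its tests use the pooled spread. The RNA-Seq fit had no block. Same-numbered RNA-Seq libraries of WT DMSO, WT Tg and DD DMSO deviated together (r from 0.74 to 0.86). Those of DD Tg did so only weakly with each of these groups (r from 0.13 to 0.30). Same-numbered Subunit-Seq libraries deviated together in all pairs of groups but input and IP in DMSO (r from 0.00 to 0.51). The code of the test was tried on simulated reads without the replicate differences seen in these libraries. That trial therefore does not bear on whether the calls hold.

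Sites were assigned to RefSeq gene spans (GRCh38.p14) by position and, for the 8 readers with a known strand, by strand, which was not known for YTHDF3 and IGF2BP1. Duplicate entries were removed. Sequences are from RefSeq.

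All 10 readers are named, and of each other list up to 4 called genes with the largest change. Likeness was the highest Pearson r with the mean standardized reader level. Members and lists were chosen with earlier results of these data known. Alternatives were another pseudocount, filters, scalings, voom, the block and leaving out each library.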

Additional observations from a re-analysis of the deposited data

How the results depend on the processing

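The count of readers called in the 5 RNA-Seq comparisons was 0 under every alternative run, including the replicate block, and the replicate block together with leaving out DD Tg replicate 2, an alternative chosen after seeing the data. For IP against input, 7 readers were called in DMSO and 4 in Tg, where 2100 and 1432 of 9813 genes were called higher. With a pseudocount of 0.1 RPKM 3 and 1 readers were called (1227 and 355 genes). Scaled without mitochondrially encoded genes it was 4 and 1 (1218 and 582 genes). With voom on library totals it was 1 and 0 (424 and 109 genes). No reader was called with median-ratio scaling (12 and 27 genes) or voom on median-ratio sizes (93 and 51 genes). The same held with no replicate block (21 and 24 genes) and no filter (0 and 0 of 31093 genes). All these gene counts are of genes called higher in the IP, and such calls thus fell over all genes and not for readers alone. Genes called lower in the IP went the other way with voom on median-ratio sizes. They rose from 172 to 663 in DMSO and from 159 to 318 in Tg. Leaving out 1 library also changed the calls, of readers and over all genes. HNRNPA2B1 was called most often, in 12 of 18 settings in DMSO and 10 of 18 in Tg. IGF2BP3 turned sign in DMSO with median-ratio scaling (−0.33), with voom on median-ratio sizes (−0.70) and on leaving out 1 library (−0.44 to 1.24), and in Tg with those 2 scalings (−0.18 and −0.10). IGF2BP1 turned sign in Tg with them (−0.20 and −0.19), and its treatment difference of recovery ranged from −2.07 to 0.15 on leaving out 1 library. Scaling moves the all-gene median, but why calls and signs changed between these alternatives was not tested. Site counts were the same with strand ignored, within 1000 bases of the span and within 5 bases between lists. The readers below 30 reads in a library were YTHDC1, YTHDC2 and IGF2BP2 in input DMSO replicate 2 and IGF2BP2 and IGF2BP3 in WT DMSO replicate 2.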
